A study of Cavia porcellus with 10 samples.

Results

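Enzymes that make, reactivate or inactivate steroids inside a tissue were followed through pregnancy in the guinea pig cervix. The list holds 10 genes, namely the 5-alpha reductases SRD5A1, SRD5A2 and SRD5A3, the hydroxysteroid dehydrogenases HSD11B1, HSD11B2, HSD17B2, HSD17B4, HSD17B11 and HSD17B12, and steroid sulfatase, STS. Members were found in the table of 25028 Ensembl genes, of which 20251 carry a gene name, by their symbol. The exact symbol matched 5 members, HSD17B4 matched in another letter case, and HSD11B1 matched through its UniProt entry name for guinea pig, so that 7 of the 10 members have values. SRD5A2, HSD17B11 and STS had no matching name and were not analysed here.

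Steroid hormones reach the cervix from the blood, and enzymes in the cells then decide which form meets its receptor. The 5-alpha reductases reduce progesterone and testosterone, HSD17B2 oxidizes estradiol to estrone and testosterone to androstenedione, HSD11B1 regenerates active glucocorticoid from its inert keto form, and HSD11B2 does the reverse. In the mouse, 5-alpha reduction of progesterone in the cervix is known to be needed for normal parturition.

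The animals were Hartley guinea pigs, 3 non-pregnant females taken at entry into estrus (NP), 3 in mid-pregnancy (MT, 43.6 ± 0.5 days) and 4 in late pregnancy (LT, 65.2 ± 1.2 days), the latter not in labor. Gestational age was estimated by the study from fetal size. Tissue came from the vaginal portion of the cervix, each animal gave 1 strand-specific poly A library, and all tissue was bulk tissue. Between 18730665 and 27881572 reads per library were counted on genes.

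Abundance is given in transcripts per 1000000 transcripts (TPM), which corrects for gene length and sums to the same total in each animal. The study treats 3 TPM as the operational threshold of an expressed gene. Stages were compared with limma on log2(TPM + 1) for the 12645 genes that averaged 3 TPM or more in any of the 3 stages. P-values were adjusted by Benjamini and Hochberg over all of these genes, and a difference was called at an adjusted P under 0.05. Of the 7 members with values, 6 were tested, since HSD17B2 lay under 3 TPM in each stage. Differences are on the log2(TPM + 1) scale as the later minus the earlier stage, with the standard error (SE), and they understate the change of scarce transcripts. Exact permutation tests on square-root transformed TPM were two-sided. They cannot give a P below 0.1 with 3 animals against 3, or below 0.0286 with 3 against 4.

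The median difference of all tested genes was -0.14 from NP to MT, -0.16 from MT to LT and -0.28 from NP to LT. Scaling each library by the median ratio to the gene-wise geometric mean brought these medians to -0.00, 0.01 and 0.03. A member that is level in TPM therefore moves up relative to the typical gene, and for the members both readings are given where the call or the sign differs. Marker transcripts of the cervix were present in each library, with summed levels of 6438 to 11889 TPM for 6 stromal genes. The 6 smooth muscle genes summed to 6319 to 24672 TPM in the NP animals, 9843 to 14431 TPM in MT and 14031 to 31292 TPM in LT, where replicates 3 and 4 (30341 and 31292 TPM) stood above replicates 1 and 2 (14697 and 14031 TPM). The sum for 7 glandular and mucus genes was 566 to 780 TPM in the NP animals, 2297 to 4708 TPM in MT and 6909 to 8636 TPM in LT. The 6 squamous epithelial genes summed to 1021 to 3235 TPM in the NP animals, 168 to 1232 TPM in MT and 1497 to 2941 TPM in LT. Of these genes, 6, 5 and 4 reached 3 TPM in any animal of NP, MT and LT, so the sum does not stand for each gene. Leukocyte markers (7 genes) summed to 94.6 to 188 TPM in the NP animals, 97.9 to 114 TPM in MT and 130 to 242 TPM in LT, so each LT animal lay above each MT animal. Endothelial markers (4 genes) summed to 79.2 to 116 TPM in the NP animals, 62.6 to 89.7 TPM in MT and 35.4 to 52.3 TPM in LT, so each LT animal lay below each NP and MT animal. No matched marker was at 0. The part of these cell markers in the differences below was not tested. NP replicate 1 stood apart from the other NP animals, with a squamous sum of 3235 TPM against 1048 and 1021 TPM and a smooth muscle sum of 24672 TPM against 8176 and 6319 TPM. Its stromal sum was 11889 TPM against 7312 and 6933 TPM. The leukocyte sum (94.6 TPM against 188 and 169 TPM) and the endothelial sum (79.2 TPM against 116 and 112 TPM) were lower there. Replicate 1 had the highest stromal sum in MT (10926 TPM) and in LT (10576 TPM) as well.

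The 7 enzymes formed an abundant and a scarce class. In LT the mean abundance ran in the order HSD11B2, HSD17B4, HSD17B12, SRD5A3, HSD11B1, SRD5A1 and HSD17B2. HSD11B2 and HSD17B4 overlapped between animals, as did HSD11B1 and SRD5A1, and all other neighbours in that order were apart. The order was the same in MT, with the same overlaps. In NP the order was HSD17B4, HSD11B2, SRD5A3 and HSD17B12, each overlapping its neighbour, followed by HSD11B1 and SRD5A1, which also overlapped, and then HSD17B2. Over all 10 animals, HSD11B2 averaged 111 TPM and lay above 92.5% of the 18100 genes with a read, and HSD17B4 averaged 103 TPM and lay above 91.8% of them. SRD5A1 averaged 3.58 TPM and lay above 34.9% of these genes.

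**Figure D1:**
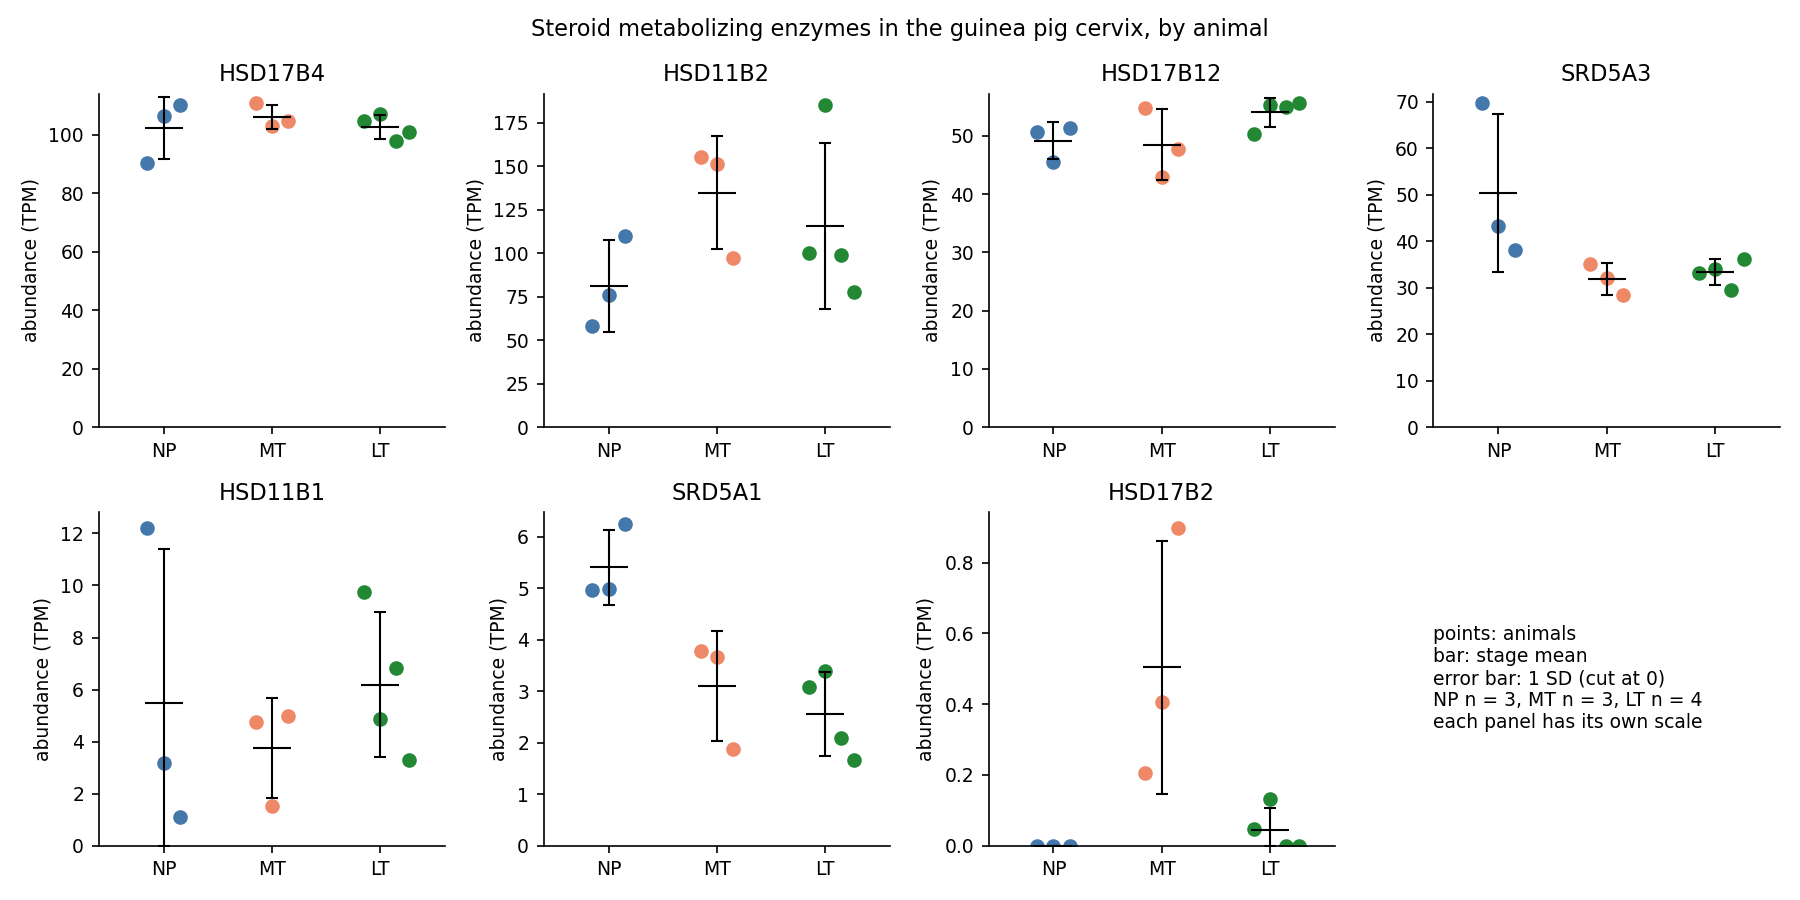
Abundance in TPM (vertical axis, one scale per panel, from 0) of the 7 enzymes with values, by stage. Points are animals (NP n = 3, MT n = 3, LT n = 4), bars are stage means and error bars are 1 SD. SRD5A1 and SRD5A3 show no LT or MT animal as high as the lowest NP animal, HSD17B4 and HSD17B12 stay near 100 and 50 TPM, and HSD17B2 has reads in each MT animal but in no NP animal.

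Both 5-alpha reductases with values had a lower TPM in each pregnant animal than in each NP animal. Such a separation in either direction was common, at 34.9% of all tested genes between NP and MT and 52.4% between NP and LT, so it is no result about these enzymes. SRD5A1 is the type 1 enzyme, which acts on progesterone, testosterone and glucocorticoids. SRD5A1 (ENSCPOG00000008203) had 4.97, 4.99 and 6.25 TPM in the NP animals. It had 3.78, 3.66 and 1.87 TPM in MT and 3.08, 3.39, 2.09 and 1.66 TPM in LT. Each pregnant animal lay below each NP animal, MT and LT overlapped, and 1 MT and 2 LT animals were under the operational threshold of 3 TPM. Between 30 and 90 reads per library stand behind these values.

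The stage means of SRD5A1 were 5.41 ± 0.732 TPM in the NP group (SD, n = 3), 3.11 ± 1.07 TPM in the MT group (SD, n = 3) and 2.55 ± 0.814 TPM in the LT group (SD, n = 4). SRD5A1 fell from NP to LT (-0.87, SE 0.24, limma adjusted P = 0.0134). The exact permutation test gave P = 0.0286, the smallest it allows, a value fixed by the separation of the animals. SRD5A1 remained called after median-ratio scaling, with a difference of -0.62 and an adjusted P of 0.0486. It was not called in edgeR's quasi-likelihood test on the read counts, where the difference was -0.79 (adjusted P = 0.0541). The call also ended without NP replicate 3 (-0.78, adjusted P = 0.0520) and with the replicate number as a block, given in the closing section. Between NP and MT SRD5A1 differed by -0.67 (SE 0.26, limma adjusted P = 0.0989), with a 95% interval of -1.26 to -0.09. The MT to LT difference was -0.20 (SE 0.24, adjusted P = 0.559), within the spread between animals. In bulk tissue, fewer cells that carry a transcript and less of it per cell cannot be told apart, here or for any other member.

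SRD5A3 carries the same name but is best known as the polyprenol reductase that makes dolichol, the lipid on which N-glycans are built. SRD5A3 (ENSCPOG00000011801) had 69.7, 43.2 and 38.1 TPM in the NP animals, 35.1, 32.1 and 28.3 TPM in the MT animals, and 33.2, 34.1, 29.6 and 36.2 TPM in LT. Again each pregnant animal lay below each NP animal, and the 4 LT animals overlapped the MT animals. The highest value came from NP replicate 1, which was 1.71 times the average of NP replicates 2 and 3 (40.6 ± 3.63 TPM, SD, n = 2) and which also had the high squamous and smooth muscle sums.

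SRD5A3 averaged 50.3 ± 17.0 TPM in the NP group (SD, n = 3), 31.8 ± 3.41 TPM in the MT group (SD, n = 3) and 33.3 ± 2.78 TPM in the LT group (SD, n = 4). It fell from NP to LT (-0.54, SE 0.18, limma adjusted P = 0.0309), with an exact permutation P of 0.0286, again fixed by the separation of the animals. The call ended after median-ratio scaling, where the difference was -0.22 and the adjusted P 0.437, and in edgeR (-0.34, adjusted P = 0.249). It also ended in DESeq2 and with only the 2 stages compared. Without NP replicate 1 the difference was -0.28 with an adjusted P of 0.0558. The call was also lost without LT replicate 1, 2 or 3, with adjusted P-values of 0.0547, 0.0542 and 0.0757 and differences of -0.54, -0.55 and -0.48. Between NP and MT SRD5A3 differed by -0.60 (SE 0.19, adjusted P = 0.0581), and this passed without NP replicate 3 (-0.77, adjusted P = 0.0298). The MT to LT difference was 0.06 (SE 0.18, adjusted P = 0.819). Exact permutation of the F statistic over the 3 stages gave P = 0.0319 for SRD5A1 and P = 0.00905 for SRD5A3, where the smallest possible value is 0.000476. The same test gave 0.00714 for HSD17B2, 0.208 for HSD17B12, 0.292 for HSD11B2, 0.683 for HSD11B1 and 0.774 for HSD17B4. These P-values were not adjusted for the number of members.

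Of the glucocorticoid pair, the inactivating enzyme was the more abundant in each animal. HSD11B2 oxidizes cortisol to inert cortisone and protects the mineralocorticoid receptor from it. HSD11B2 (ENSCPOG00000010894) had 58.0, 75.8 and 109.8 TPM in the NP animals, 155, 151 and 97.5 TPM in the MT animals, and 100.1, 185, 98.9 and 77.7 TPM in LT. All 3 stages overlapped, and MT replicate 3 and 3 of the 4 LT animals lay below the highest NP animal. The means were 81.2 ± 26.3 TPM (SD, n = 3), 135 ± 32.4 TPM (SD, n = 3) and 115 ± 47.6 TPM (SD, n = 4).

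The difference of HSD11B2 from NP to MT was 0.74 (SE 0.33, limma adjusted P = 0.139), with a 95% interval of 0.01 to 1.47. Between NP and LT it was 0.47 (SE 0.31, adjusted P = 0.217), and after median-ratio scaling it was 0.79 with an adjusted P of 0.0433. Between MT and LT it was -0.27 (SE 0.31, adjusted P = 0.532). Single animals moved these TPM differences. Without LT replicate 2, the highest LT animal, the NP to LT difference was 0.22 and that from MT to LT -0.52, and without NP replicate 1 the NP to LT difference was 0.26. Without NP replicate 3 the latter was 0.71, and from MT to LT it was -0.15, -0.17, -0.49 and -0.11 without MT replicate 1, 2 or 3 or LT replicate 4. In TPM, HSD11B2 was thus not called in any comparison, and relative to the typical gene it was called as higher in LT than in NP by median-ratio scaling and DESeq2 (0.81, adjusted P = 0.0186) but not by edgeR (0.81, adjusted P = 0.0501).

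HSD11B1, which works in the opposite direction and draws its cofactor from H6PD, was scarce and the most variable of the 6 tested members. HSD11B1 (ENSCPOG00000005596) had 12.2, 3.16 and 1.09 TPM in the NP animals, 4.74, 1.53 and 4.99 TPM in the MT animals, and 9.76, 4.89, 6.82 and 3.29 TPM in LT. The NP animals alone spanned more than the whole range of the other stages. The lowest value rests on 22 reads and the highest on 301 reads, the latter from NP replicate 1, which had 5.76 times the average of NP replicates 2 and 3 (2.12 ± 1.47 TPM, SD, n = 2).

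The coefficient of variation of HSD11B1 was 108% in NP, 51.5% in MT and 45.0% in LT, against a median of 15.9%, 11.2% and 10.9% over all tested genes. Its means were 5.49 ± 5.92 TPM (SD, n = 3), 3.75 ± 1.93 TPM (SD, n = 3) and 6.19 ± 2.78 TPM (SD, n = 4). No difference of HSD11B1 was called, with -0.13 (SE 0.62, adjusted P = 0.899) from NP to MT, 0.62 (SE 0.58, adjusted P = 0.447) from MT to LT and 0.48 (SE 0.58, adjusted P = 0.505) from NP to LT. The 95% interval from NP to LT was -0.82 to 1.79. The difference from NP to MT was 0.59 without NP replicate 1 and 0.27 without MT replicate 2, and without NP replicate 3 that from NP to LT was -0.13, so the sign rests on single animals. H6PD itself had 20.2 ± 1.71 TPM (SD, n = 3), 20.2 ± 2.42 TPM (SD, n = 3) and 16.2 ± 1.75 TPM (SD, n = 4), and it was not called.

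Within each animal, HSD11B2 exceeded HSD11B1. The ratio of HSD11B2 to HSD11B1, each with 1 TPM added, was 4.47, 18.5 and 53.1 in NP, 27.2, 60.3 and 16.4 in MT, and 9.40, 31.7, 12.8 and 18.3 in LT. The lowest ratio, 4.47, belonged to NP replicate 1, in which HSD11B1 was at its highest and HSD11B2 at its lowest. As the log2 of HSD11B1 over HSD11B2, the means were -4.03 ± 1.79 (SD, n = 3) in NP, -4.91 ± 0.95 (SD, n = 3) in MT and -4.02 ± 0.75 (SD, n = 4) in LT. The stages were not distinguished by the exact permutation of F over 10 animals (P = 0.586).

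**Figure D2:**
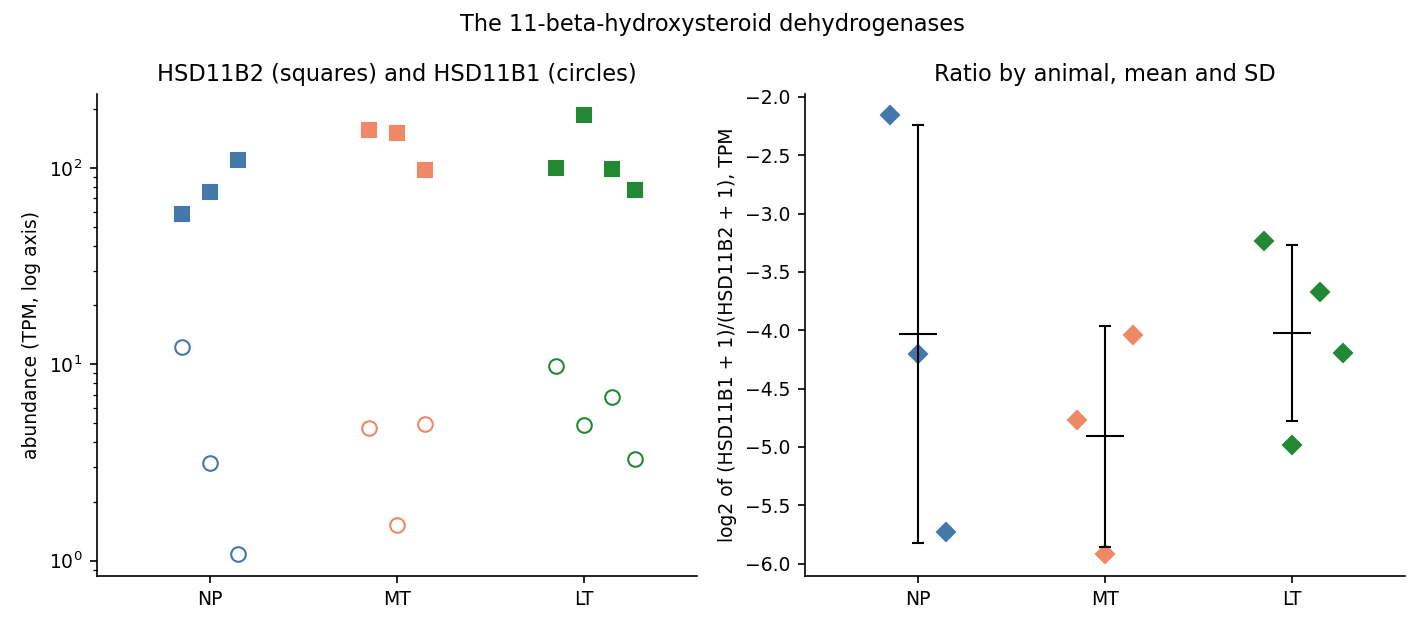
Left, abundance of HSD11B2 (squares) and HSD11B1 (open circles) in TPM on a log axis, by animal and stage. Right, the log2 ratio of HSD11B1 to HSD11B2, each with 1 TPM added, with stage means and 1 SD; the NP animals spread from -2.16 to -5.73 and cover nearly all of the MT and LT values.

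HSD17B2, which inactivates estradiol and testosterone, was near the limit of detection. HSD17B2 (ENSCPOG00000004232) had no read in any NP animal. It had 3, 6 and 18 reads in the MT animals, which is 0.206, 0.407 and 0.898 TPM, and 1, 3, 0 and 0 reads in the LT animals. Each MT animal lay above each NP and each LT animal, and all were below 1 TPM.

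Summed over a stage, HSD17B2 had 0 of 69387693 reads in NP, 27 of 63220280 reads in MT and 4 of 107764967 reads in LT. Per 1000000 reads this is 0.427 in MT (exact Poisson 95% interval 0.281 to 0.621) and 0.0371 in LT (0.0101 to 0.0950), where the intervals cover counting error only. A count of 0 in NP allows up to 0.0432 on the same scale, at 3 reads over the stage. Against that floor the MT estimate was 9.88-fold higher, and without MT replicate 3, which gave 18 of the 27 reads, 5.50-fold. Both ratios take MT at its estimate and leave out its counting error. MT exceeded LT by a factor of 11.5 (95% interval 4.01 to 45.3), or 6.41 (1.79 to 28.5) without MT replicate 3.

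With no filter on low values, limma over 18100 genes gave HSD17B2 an adjusted P of 0.0282 from NP to MT, where 4.61% of all genes were called higher, and of 0.0272 from MT to LT, where 15.5% were called lower. The first call was lost without NP replicate 2, NP replicate 3 or MT replicate 2 (adjusted P = 0.0806, 0.0735 and 0.0598). The second was lost without MT replicate 2 or LT replicate 1, 3 or 4 (adjusted P = 0.0686, 0.0530, 0.0723 and 0.0690). On the read counts, edgeR with no filter gave adjusted P-values of 0.0280 and 0.0465, where it called 7.27% of all genes higher and 9.77% lower, respectively. The exact permutation test gave P = 0.1 and P = 0.0286, in each case the smallest possible and fixed by the separation of the animals. NP and LT were not distinguished (limma adjusted P = 0.739, edgeR adjusted P = 0.207).

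HSD17B4 and HSD17B12 are named as 17-beta-hydroxysteroid dehydrogenases, but each has a main role in lipid metabolism. HSD17B4, the peroxisomal D-bifunctional protein, carries out steps of the beta-oxidation of very-long-chain fatty acids and can also oxidize estradiol. HSD17B4 (ENSCPOG00000010071) had 90.2, 106 and 110.2 TPM in the NP animals, 111, 103 and 105 TPM in the MT animals, and 105, 107, 97.7 and 101 TPM in LT. All 3 stages overlapped. Its coefficient of variation within a stage was 3.85% to 10.4%, and 28.6% of tested genes had a lower one in NP, 10.9% in MT and 8.76% in LT.

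The means of HSD17B4 were 102 ± 10.6 TPM (SD, n = 3), 106 ± 4.09 TPM (SD, n = 3) and 102 ± 4.10 TPM (SD, n = 4). Between NP and LT HSD17B4 differed by 0.01 (SE 0.08, adjusted P = 0.947), with a 95% interval of -0.18 to 0.20. Relative to the typical gene HSD17B4 rose between the same stages, by 0.33 after median-ratio scaling (adjusted P = 0.00208) and by 0.30 in edgeR on the read counts (adjusted P = 0.00424). The NP to MT difference was 0.06 (SE 0.09, adjusted P = 0.689), and that from MT to LT -0.05 (SE 0.08, adjusted P = 0.689), a sign that turned to 0.13 after scaling.

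HSD17B12 is the 3-ketoacyl-CoA reductase of the fatty acid elongation cycle and can reduce estrone to estradiol. HSD17B12 (ENSCPOG00000015424) had 50.7, 45.5 and 51.3 TPM in the NP animals, 54.9, 42.9 and 47.8 TPM in the MT animals, and 50.3, 55.4, 55.0 and 55.6 TPM in LT. The LT animals sat at the upper end, with LT replicate 1 below the highest NP and MT animals. The means were 49.2 ± 3.21 TPM (SD, n = 3), 48.5 ± 6.02 TPM (SD, n = 3) and 54.1 ± 2.50 TPM (SD, n = 4).

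From NP to LT HSD17B12 differed by 0.14 (SE 0.10, adjusted P = 0.258), with a 95% interval of -0.08 to 0.35, and relative to the typical gene it rose by 0.45 after scaling (adjusted P = 0.0106) and by 0.42 in edgeR (adjusted P = 0.0129). The MT to LT difference was 0.16 (SE 0.10, adjusted P = 0.230). The NP to MT difference was -0.02 (SE 0.10, adjusted P = 0.888), and 0.11 after scaling.

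Counted over the 6 tested members, limma called 0 from NP to MT, where 18.5% of all tested genes were called. Of the members, 3 had an unadjusted P under 0.05 in that comparison, edgeR called 0 (18% of all genes), and DESeq2 called 2 as higher (13.1% of all genes), namely HSD11B2 and HSD17B4. From MT to LT limma called 0 members against 29.4% of all tested genes, with 0 at an unadjusted P under 0.05, while edgeR called 0 (29% of all genes) and DESeq2 called 2 as higher (17.4% of all genes), namely HSD17B4 and HSD17B12. From NP to LT limma called 2 members, both lower, against 53.1% of all tested genes, of which 41.9% were lower and 11.2% higher. By limma, the share of members called was no larger than that of all genes in any of these comparisons.

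The direction of the counts moved with the scaling. From NP to LT, median-ratio scaling called 3 members as higher, HSD11B2, HSD17B4 and HSD17B12, and 1 as lower, SRD5A1, where 26.3% of all genes were called higher and 23.4% lower. For the same stages edgeR called 2 higher and 0 lower, against 23.6% and 25.8% of all genes, and DESeq2 3 higher and 1 lower, against 26.2% and 27.5%. Animals of both stages did not overlap for 2 of 6 members from NP to MT, for 0 from MT to LT and for 2 from NP to LT, against 34.9%, 46.3% and 52.4% of all tested genes. The median difference of the 6 members was -0.08, 0.01 and 0.07 in these comparisons.

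**Figure D3:**
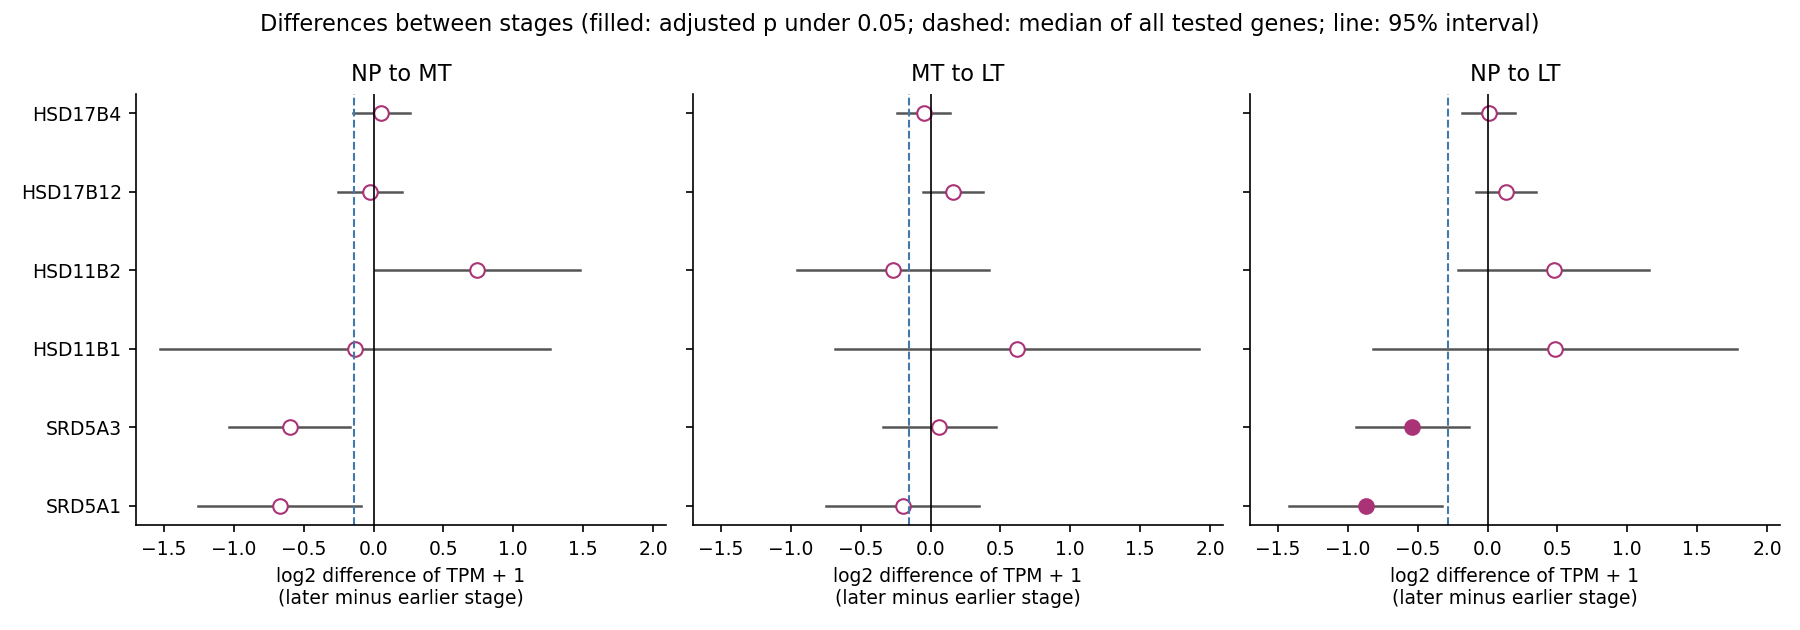
Log2 difference of TPM + 1 (horizontal axis, later minus earlier stage) of the 6 tested enzymes in each comparison, with 95% intervals. Filled points have a limma adjusted P under 0.05 (SRD5A1 and SRD5A3, NP to LT), and the dashed line marks the median of all tested genes, -0.14, -0.16 and -0.28.

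For the 3 tested members whose stage means ranged most widely, the genes with the most similar profile over the 10 animals were listed by Pearson's r on log2(TPM + 1). Both genes of a pair were measured in the same libraries, over animals of 3 stages, so differences of stage and library enter each r. For SRD5A1 they were CCNDBP1 (r = 0.97), MOSPD3 (0.95) and SFRP4 (0.94). SFRP4 averaged 116 TPM in the NP animals, 28.7 TPM in MT and 17.2 TPM in LT. For HSD11B2 they were OS9 (0.90), a gene named 5S_rRNA (0.88) and SCP2 (0.88). For HSD11B1 they were CDC42 (0.92), C14orf80 (0.91) and TXNDC5 (0.88).

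The genes around these enzymes were read from lists by role, each with the count of members past the same test. These counts stand against shares over all tested genes, for which limma called 6.27% higher and 12.2% lower from NP to MT, 6.73% and 22.7% from MT to LT, and 11.2% and 41.9% from NP to LT. On the read counts, where the typical gene is level, the split was more even. The edgeR fit called 10.1% higher and 7.98% lower from NP to MT, 13.4% and 15.6% from MT to LT, and 23.6% and 25.8% from NP to LT. The DESeq2 fit called 13.1% and 11.5%, 17.4% and 18.8%, and 26.2% and 27.5%, in the same order. With 4 to 11 genes in a list, 1 gene is a large share, and nothing is read from a list whose count is near these shares.

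Of 13 genes of steroid synthesis, 11 had a row and 6 were tested. CYP11A1, CYP17A1, CYP21A2, CYP19A1 and CYP11B1 stayed under the threshold of 3 TPM in each stage, the latter pair without a read in 240372940 reads over all animals, where a count of 0 allows up to 3. Of the 6 tested genes, 1 rose and 0 fell from NP to MT, 1 rose and 1 fell from MT to LT, and from NP to LT 2 rose and 2 fell, against 11.2% and 41.9% of all genes. In the last comparison edgeR and DESeq2 each called 3 higher and 1 lower. FDXR and POR, which pass electrons to steroidogenic and microsomal P450 enzymes, fell from NP to LT (-0.60, adjusted P = 0.00447, and -0.32, adjusted P = 0.0283), and after scaling FDXR was at -0.30 (adjusted P = 0.0294) and POR was not called (-0.00).

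CYB5A, the cytochrome b5 that assists P450 and fatty acid desaturation reactions, rose from 465 ± 68.2 TPM in the NP group (SD, n = 3) to 1843 ± 100.4 TPM in the MT group (SD, n = 3). This is a difference of 1.99 (SE 0.12, adjusted P = 2.09e-05). In LT it stood at 1289.6 ± 79.9 TPM (SD, n = 4), lower than in MT by limma (-0.52, adjusted P = 0.00939) but not called after scaling (-0.33, adjusted P = 0.0715). STAR, which brings cholesterol into mitochondria, was at 0.152, 0.138 and 0.430 TPM in NP and at 0.142, 0 and 0 TPM in MT. It had 7.44, 4.13, 1.63 and 1.42 TPM in LT, above each earlier animal, with 2 LT animals over 3 TPM. STAR passed the filter only through LT, the stage where it was high, so its 2 calls in the counts above are not independent of the filter. With no filter, over 18100 genes, the NP to LT difference was 1.72 (SE 0.39, limma adjusted P = 0.00696).

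Of 19 other hydroxysteroid and ketosteroid enzymes, 14 had a row and 10 were tested. Among these, 0 rose and 2 fell from NP to MT, from MT to LT 0 rose and 1 fell, and from NP to LT 0 rose and 4 fell, where 41.9% of all genes fell. On the read counts the last comparison was not one-sided, with 1 higher and 2 lower in edgeR and 2 higher and 2 lower in DESeq2. RDH16, a retinol dehydrogenase that also oxidizes 3-alpha-hydroxysteroids, fell at each step, from 25.9 ± 3.68 TPM in the NP group (SD, n = 3) to 16.7 ± 3.49 TPM in the MT group (SD, n = 3) and 10.1 ± 1.53 TPM in the LT group (SD, n = 4). The NP to LT difference of RDH16 was -1.29 (SE 0.17, adjusted P = 0.000321) and after scaling -0.98. Its step from NP to MT, -0.62 (adjusted P = 0.0386), was not called after scaling (adjusted P = 0.0569).

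DHRS9, of the same family, had 122, 30.5 and 11.6 TPM in NP and between 0.884 and 4.19 TPM in the pregnant animals. Its difference was -4.09 from NP to MT (SE 0.65, adjusted P = 0.00324) and -3.19 from NP to LT (SE 0.61, adjusted P = 0.00195). The highest DHRS9 value was again in NP replicate 1, while the other NP animals were also above each pregnant animal. HSD17B7 and CBR1 were lower in LT than in NP (-0.45 and -0.46) and lost the call after scaling (-0.15 and -0.17). HSD17B3, HSD17B13, RDH5 and AKR1D1, the last also without a read, were under 3 TPM in each stage.

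Of 12 genes of conjugation and hydroxylation, 8 had a row and 6 were tested. From NP to MT 1 rose and 1 fell, from MT to LT 1 rose and 0 fell, and from NP to LT 2 rose and 2 fell, against 11.2% and 41.9% of all genes. Both edgeR and DESeq2 called 3 higher and 1 lower from NP to MT and 3 higher and 2 lower from NP to LT. SULT2B1, a sulfotransferase of cholesterol and hydroxysteroids, rose from 20.9 ± 1.37 TPM in the NP group (SD, n = 3) to 48.6 ± 10.8 TPM in the MT group (SD, n = 3) (1.16, SE 0.15, adjusted P = 0.00146). It reached 66.0 ± 7.59 TPM in the LT group (SD, n = 4) (1.61 over NP, adjusted P = 8.51e-05). SUMF2, related to the factor that activates sulfatases, rose from NP to LT by 0.30 (adjusted P = 0.0242).

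CYP7B1, which hydroxylates oxysterols and dehydroepiandrosterone, fell from 27.3 ± 2.62 TPM in the NP group (SD, n = 3) to 15.9 ± 1.37 TPM in the MT group (SD, n = 3) (-0.74, SE 0.10, adjusted P = 0.00161). In LT it was at 14.7 ± 0.298 TPM (SD, n = 4). CYP1B1, an estrogen hydroxylase, had stage means of 5.17, 2.10 and 1.62 TPM and passed the filter only through NP, where it was high. With no filter it was also called lower in LT than in NP (-1.25, SE 0.30, limma adjusted P = 0.00962). SULT1E1, the estrogen sulfotransferase, and CYP1A1 were under 3 TPM in each stage. The calls of SULT2B1, SUMF2, CYP7B1 and CYP1B1 from NP to LT were also made after scaling.

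**Figure D4:**
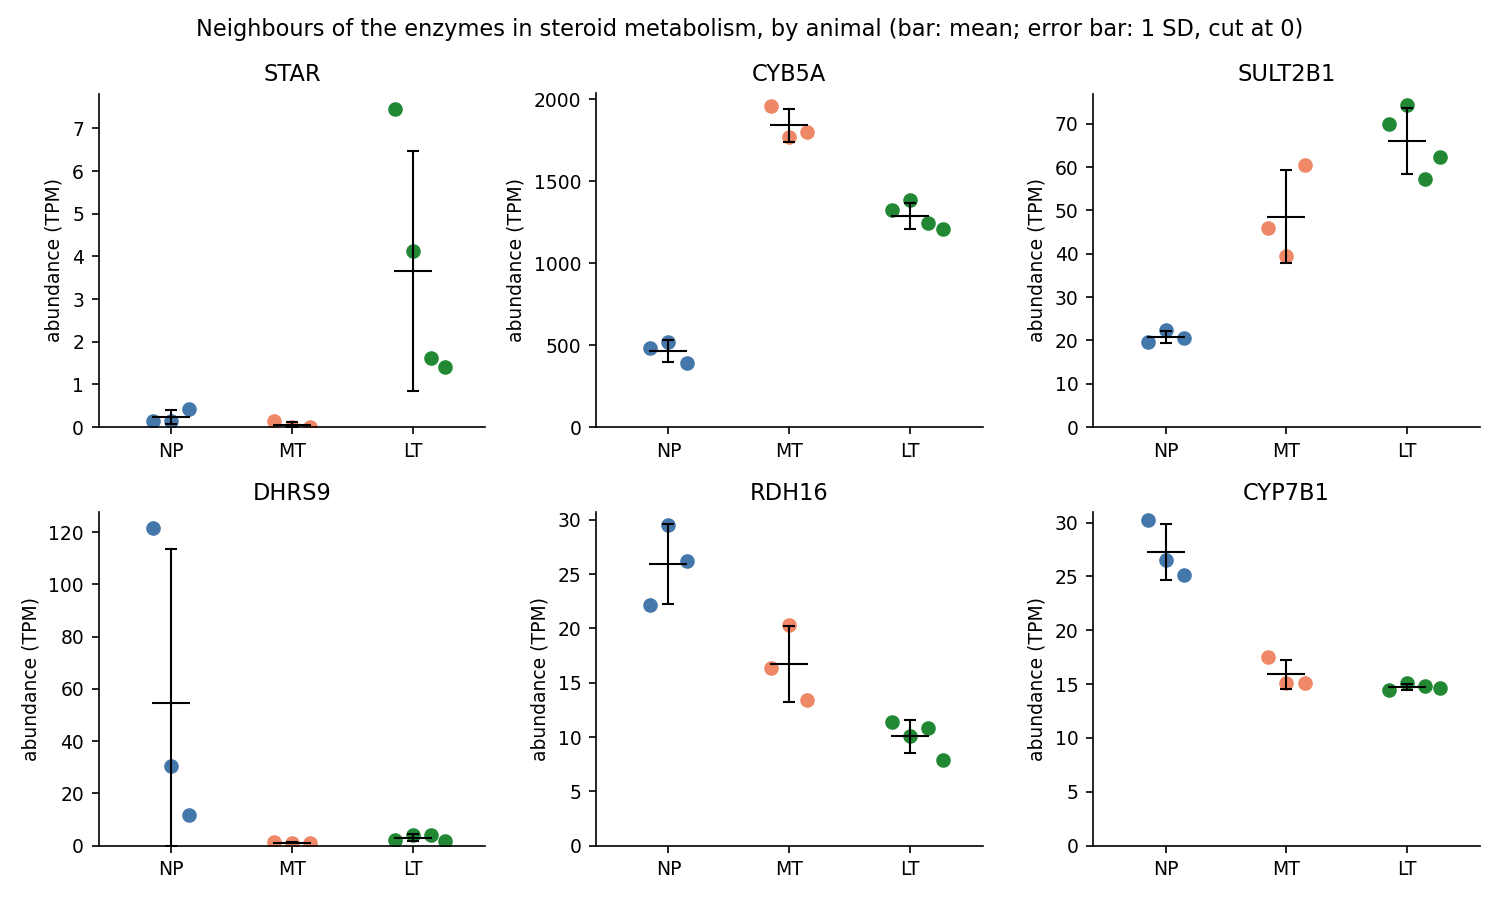
Abundance in TPM (vertical axis, one scale per panel, from 0) of 6 genes of steroid synthesis, dehydrogenation and conjugation that passed the test, by animal, with stage means and 1 SD. CYB5A and SULT2B1 are higher in each MT and LT animal than in NP, DHRS9, RDH16 and CYP7B1 are lower, and STAR is above 1 TPM in the LT animals only.

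Of 7 steroid transport genes, all had a row and 6 were tested, with 0 up and 1 down from NP to MT, 0 up and 1 down from MT to LT, and 2 up and 3 down from NP to LT, against 11.2% and 41.9% of all genes. From NP to MT DESeq2 called 2 up and 0 down and edgeR 0 in either direction, and from NP to LT each called 3 up and 2 down. SLCO4A1, an organic anion transporter, rose from NP to LT by 1.38 (SE 0.35, adjusted P = 0.00864). The efflux pumps ABCC4 (-0.80, adjusted P = 0.00512) and ABCC1 (-0.60, adjusted P = 0.00503) and SLC10A6 (-0.58, adjusted P = 0.0266), a carrier of sulfated steroids, fell. After scaling these differences were -0.50, -0.30 and -0.33, and ABCC1 alone of these was called (adjusted P = 0.0363). SHBG was under 3 TPM in each stage.

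Among 6 listed receptors for these steroids, 4 were tested, with 1 up and 0 down from NP to MT, 0 up and 2 down from MT to LT, and 0 up and 2 down from NP to LT, where 41.9% of all genes fell and where edgeR and DESeq2 each called 1 up and 2 down. The progesterone receptor PGR rose from 26.9 ± 3.11 TPM in the NP group (SD, n = 3) to 56.1 ± 4.41 TPM in the MT group (SD, n = 3) (1.04, SE 0.15, adjusted P = 0.00191). It fell to 30.1 ± 4.92 TPM in the LT group (SD, n = 4) (-0.89 from MT, SE 0.14, adjusted P = 0.00315). From NP to LT PGR differed by 0.15 (adjusted P = 0.378), and relative to the typical gene it was called higher, by 0.46 after scaling (adjusted P = 0.0400) and 0.45 in edgeR (adjusted P = 0.0473). The estrogen receptor ESR1 averaged 242 ± 105 TPM, 144 ± 17.2 TPM and 93.1 ± 11.9 TPM (SD, n = 3, 3 and 4) and fell from NP to LT (-1.26, SE 0.28, adjusted P = 0.00473). The glucocorticoid receptor NR3C1 had 29.2 ± 5.09, 25.8 ± 3.19 and 16.5 ± 0.722 TPM (SD, n = 3, 3 and 4) and fell from MT to LT (-0.61, SE 0.13, adjusted P = 0.00856). The mineralocorticoid receptor NR3C2 had 5.49 ± 2.91, 5.81 ± 0.798 and 3.03 ± 0.346 TPM and was not called. GPER1 was under 3 TPM in each stage.

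The lipid pathways in which SRD5A3, HSD17B4 and HSD17B12 also work were read in the same way. For SRD5A3, 8 of 9 genes of dolichol synthesis and the start of N-glycosylation were tested. From NP to MT 1 rose, from MT to LT 2 rose and from NP to LT 6 rose, and 0 fell in any comparison, where 6.27%, 6.73% and 11.2% of all genes rose. Both edgeR and DESeq2 called 5, 4 and 8 higher and 0 lower. DPAGT1, which adds the first sugar to dolichol phosphate, rose from 31.7 ± 0.832 TPM in the NP group (SD, n = 3) to 49.2 ± 2.87 TPM in the MT group (SD, n = 3) and 54.9 ± 4.86 TPM in the LT group (SD, n = 4). The dolichol kinase DOLK rose from NP to LT by 0.52 (SE 0.09, adjusted P = 0.00108) and ALG5 by 0.73 (SE 0.11, adjusted P = 0.000682). DHDDS and NUS1, which together form the enzyme that builds the polyprenol chain, rose by 0.34 and 0.31 (adjusted P = 0.0311 and 0.0119), and the mannosyltransferase ALG2 rose by 0.30 (adjusted P = 0.0475). The median of the 8 genes from NP to LT was 0.33, against -0.28 for all tested genes and -0.54 for SRD5A3.

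For HSD17B4, 10 of 10 genes of peroxisomal beta-oxidation were tested, with 1 up from NP to MT, 1 down from MT to LT, and 1 up and 2 down from NP to LT, against 11.2% and 41.9% of all genes. In the last comparison edgeR called 3 up and 1 down and DESeq2 3 up and 2 down. ABCD3, a peroxisomal fatty acid importer, rose from 35.2 ± 8.22 TPM in the NP group (SD, n = 3) to 60.6 ± 2.93 TPM in the MT group (SD, n = 3) (0.79, SE 0.17, adjusted P = 0.0129). ACOX3, an acyl-CoA oxidase, fell from NP to LT (-0.97, SE 0.19, adjusted P = 0.00251), also after scaling. AMACR, a racemase of branched fatty acids, fell as well (-0.64, adjusted P = 0.00882) and was not called after scaling (-0.32).

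For HSD17B12, 11 of 11 genes of fatty acid elongation were tested, with 2 up from NP to MT, 1 down from MT to LT, and 4 up and 1 down from NP to LT, against 11.2% and 41.9% of all genes. On the read counts more were called, with 3 up in edgeR and 6 up in DESeq2 from NP to MT, and 8 up in both from NP to LT with 0 and 1 down. ELOVL2, an elongase of polyunsaturated fatty acids, rose from 56.7 ± 1.33 TPM in the NP group (SD, n = 3) to 279.9 ± 18.2 TPM in the MT group (SD, n = 3) and was at 187 ± 26.8 TPM in the LT group (SD, n = 4). Its NP to MT difference was 2.28 (SE 0.12, adjusted P = 1.00e-05), and it fell from MT to LT (-0.59, adjusted P = 0.00579). ELOVL3 rose from 10.4 ± 6.92 TPM (SD, n = 3) to 60.0 ± 2.47 TPM (SD, n = 3) from NP to MT (2.58, SE 0.34, adjusted P = 0.00135). ELOVL1 rose from NP to LT by 0.33 (SE 0.11, adjusted P = 0.0255). Beside these, HSD17B12 had means of 49.2, 48.5 and 54.1 TPM. The single down call from NP to LT, HACD3, overlapped between stages and was not made after scaling.

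**Figure D5:**
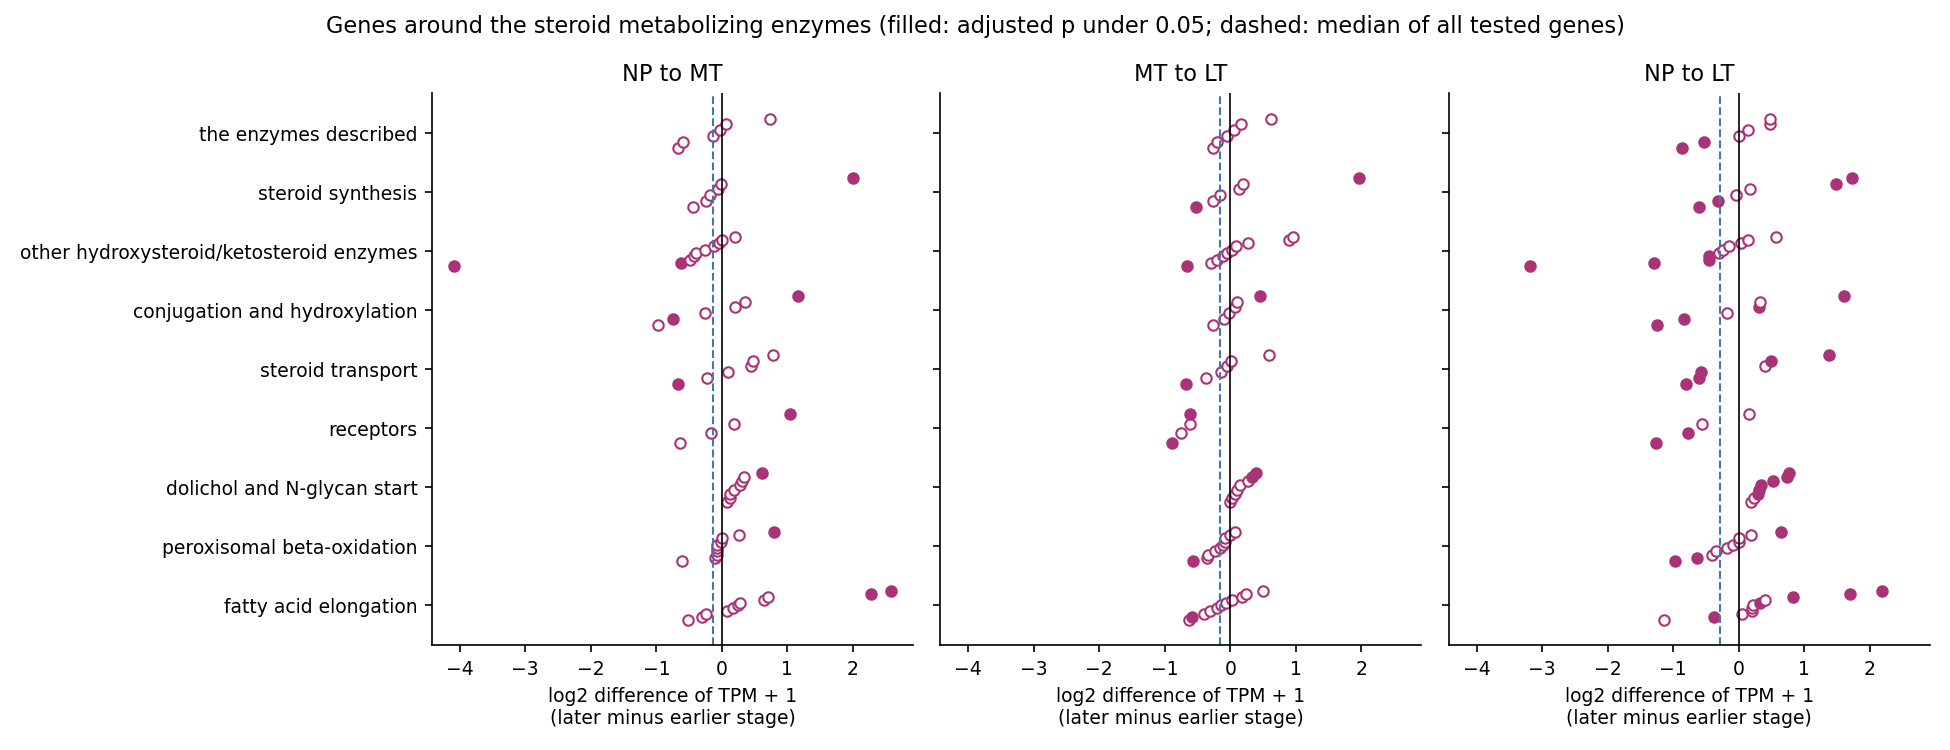
Log2 difference of TPM + 1 (horizontal axis, later minus earlier stage) of each tested gene of the 9 lists (vertical axis) in the 3 comparisons. Filled points have a limma adjusted P under 0.05, the dashed line is the median of all tested genes, and the 8 dolichol genes lie to the right of it in each comparison.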

How the data were processed

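Poly A RNA of each animal was sequenced strand-specifically in single reads on an Illumina HiSeq instrument, and the submitters' processing notes name the Illumina software CASAVA 1.8.2. The authors aligned the reads with TopHat2 to cavPor3.69 and counted them per Ensembl gene with HTSeq-count 0.5.4p1. The deposited table holds these raw counts and, per the file headers and the study's methods, the TPM values that the authors derived from them, both per animal and not pooled. Levels and the main tests rest on TPM, depth and edgeR or DESeq2 fits on the counts. The library totals limit the precision of scarce genes to counting error at best.

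One limma 3.58.1 model (R 4.3.3, trended variance) over the 10 animals with stage as the only term was fitted to log2(TPM + 1), for genes that averaged 3 TPM or more in any of the 3 stages. Alternatives were a pseudocount of 0.5, the square-root scale, no filter, median-ratio scaling, only the 2 stages compared, edgeR 4.0.16 with TMM factors, DESeq2 1.42.0, a replicate block, and leaving out each animal. For HSD17B2, edgeR with no filter and leaving out animals with no filter were chosen after seeing the data. Of these fits, only limma on log2(TPM + 1) and edgeR were tested on simulated data. Members and lists were chosen with earlier results of these data known. All 7 members with values were described. Other listed genes were named where they passed the test and the animals of both stages did not overlap, or where they stayed under the filter, and HACD3, H6PD and NR3C2 were named after their values were seen. No libraries of a stage agreed within sampling noise. The planned ratio of STS to SULT1E1 was not computed, since STS was not analysed here. A receptor of the planned list is not reported here, and the counts of that list leave it out. Genes were placed by name only, and no coordinates are given.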

Additional observations from a re-analysis of the deposited data

Results flagged for a closer look

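The value of HSD17B12 in LT replicate 1, 50.3 TPM, lay apart from the other LT animals, which had 55.0 to 55.6 TPM. The gap to its nearest neighbour was 0.880 of the range of the 4 animals, above the 95% critical value of Dixon's test. Chance gives such a value in about 1 of 20 groups, and 1 was found among the members in LT. The stages of 3 animals were not tested.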

How the results depend on the processing

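Of 324 values of single members under other settings, 285 kept their direction and side of the threshold. From NP to MT, HSD17B12 turned to 0.11 under median-ratio scaling, 0.095 in edgeR and 0.10 in DESeq2, and DESeq2 called HSD11B2 (0.87) and HSD17B4 (0.18). From MT to LT, HSD17B4 turned to 0.13 under scaling, 0.12 in edgeR and 0.12 in DESeq2, and DESeq2 called HSD17B12 (0.33). From NP to LT, scaling, edgeR and DESeq2 called HSD17B4 (0.33, 0.30 and 0.30) and HSD17B12 (0.45, 0.42 and 0.43), and scaling and DESeq2 called HSD11B2 (0.79 and 0.81). SRD5A3 lost its call under these (-0.22, -0.34 and -0.33) and with only the 2 stages compared (-0.54), and SRD5A1 in edgeR (-0.79). The cause was not tested.

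Whether the same replicate numbers mark related animals was not settled. Deviations of same-numbered animals correlated between -0.29 and 0.25, and each such pair from NP to MT was positive (0.25, 0.16 and 0.08). Replicate 1 also had the highest stromal marker sum in each stage (11889, 10926 and 10576 TPM in NP, MT and LT). With a replicate block, SRD5A1 from NP to LT was -0.74 (limma adjusted P = 0.0514), and 1577, 1693 and 5448 genes were called against 2342, 3723 and 6718. The block changed no other call of a member. LT replicate 4 shares its number with no other animal, so the block leaves it out of these differences.

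Leaving out 1 animal, the counts ranged from 1100 (without MT replicate 3) to 4174 (without NP replicate 1) from NP to MT, from 1946 (without MT replicate 2) to 5323 from MT to LT, and from 5304 to 7726 from NP to LT. With only the 2 stages compared, 1113 genes were called from NP to MT. Scaling moved the calls to 1378 higher and 904 lower from NP to MT, 1848 and 1868 from MT to LT, and 3330 and 2955 from NP to LT, against 793 and 1549, 851 and 2872, and 1417 and 5301. Member differences ranged, from NP to MT, over -0.77 to -0.34 for SRD5A3, -0.74 to 0.59 for HSD11B1, -0.031 to 0.11 for HSD17B4 and -0.11 to 0.060 for HSD17B12. From MT to LT SRD5A3 ranged over -0.015 to 0.14 and HSD11B2 over -0.52 to -0.11. In the same comparison SRD5A1 ranged over -0.44 to -0.070, HSD11B1 over 0.21 to 0.84, HSD17B4 over -0.070 to -0.018 and HSD17B12 over 0.075 to 0.25. HSD17B12 ranged over 0.081 to 0.17 from NP to LT. From NP to LT the ranges were -0.98 to -0.74 for SRD5A1, -0.71 to -0.28 for SRD5A3, 0.22 to 0.71 for HSD11B2, -0.13 to 1.21 for HSD11B1 and -0.080 to 0.064 for HSD17B4. The log2 ratio of HSD11B1 to HSD11B2 ranged over -1.72 to 0.062 from NP to MT, 0.38 to 1.32 from MT to LT and -0.84 to 0.95 from NP to LT. Depth limits HSD17B2 most, with 31 reads in all.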
